A study of Homo sapiens with 2 samples.

Results

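The human alkaline phosphatase genes ALPP, ALPPL2, ALPI and ALPL were examined in D407 cells, an established human cell line that the labels call retinal pigment epithelium (RPE). The 4 genes were found by symbol among the 37364 genes of the deposited table, and the family was chosen by a measured value, the high level of ALPP, the placental gene, in both libraries. That height is therefore a description and supports nothing. There were 2 RNA libraries: 1 from control cells and 1 from cells given clusterin, an extracellular chaperone. Both came from the same line in the same serum-containing medium; neither dose nor length of treatment is given in the labels. RNA was taken on oligo(dT) beads. With 1 library per group, no difference had a replicate check and no test between groups was made.

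Alkaline phosphatases are dimeric metalloenzymes that hold zinc and magnesium and strip phosphate from many substrates outside the cell. They are tethered to the outer face of the plasma membrane by a glycosylphosphatidylinositol (GPI) anchor. In humans ALPL encodes the tissue-nonspecific enzyme of bone, liver and kidney, ALPI that of the intestinal brush border, ALPP that of the placental syncytiotrophoblast, and ALPPL2 (current RefSeq symbol ALPG) a germ cell and placental-like enzyme. Placental and placental-like alkaline phosphatase are also known as tumour markers, because some tumours and tumour-derived lines make them outside the placenta.

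ALPP, ALPPL2 and ALPI lie in a row on the plus strand of chromosome 2, and ALPL lies alone on chromosome 1. On GRCh38, RefSeq placed ALPP at 232378751 to 232382889, ALPPL2 at 232406844 to 232410714 and ALPI at 232456153 to 232460753, with gaps of 24.0 and 45.4 kb between them. ALPL spans 21508984 to 21578410. The deposited starts lay 217, 2, 41 and 2 bases before these for ALPP, ALPPL2, ALPI and ALPL, so the table follows this build for the family, although the submitters' processing notes name hg19. RefSeq places LOC124906123 over part of ALPP, and since no source used here gives the strand setting of the counting, reads from it cannot be told apart from those of ALPP.

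The stretches just before the starts of the 3 chromosome 2 genes are shown because they are alike, while the levels of the 3 genes are far apart. Each line gives the 130 bases before the RefSeq start (GRCh38.p14, plus strand, 5′ to 3′), at chr2:232378621-232378750 for ALPP, chr2:232406714-232406843 for ALPPL2 and chr2:232456023-232456152 for ALPI. Capitals mark the blocks of at least 10 bases that all 3 hold letter for letter. The ALPP stretch lies after the deposited ALPP start, so the authors' gene model covers it.
ALPP: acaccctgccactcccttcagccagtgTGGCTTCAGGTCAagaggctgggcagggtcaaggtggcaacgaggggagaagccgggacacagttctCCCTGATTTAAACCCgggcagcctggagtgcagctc
ALPPL2: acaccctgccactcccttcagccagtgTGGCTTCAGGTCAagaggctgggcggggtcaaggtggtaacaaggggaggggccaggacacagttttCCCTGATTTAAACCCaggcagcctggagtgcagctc
ALPI: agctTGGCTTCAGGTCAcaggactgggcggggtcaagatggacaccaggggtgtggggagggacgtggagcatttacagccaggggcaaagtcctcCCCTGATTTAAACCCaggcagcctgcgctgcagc

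The first block, of 13 bases, began 103 bases before the start in ALPP and ALPPL2 and 126 bases before it in ALPI. The other, of 15 bases, began 36 bases before the start in ALPP and ALPPL2 and 34 bases before it in ALPI. Each block was found, on either strand, in 3 of 34943 RefSeq start windows (250 bases before to 50 after a start). These were the windows of the 3 genes alone. The blocks were defined as shared by these windows, so the 3 matches were fixed in advance. How often other strings of this length recur was not tested. ALPP and ALPPL2 differed at 8 of the 130 bases with no gap (93.8% identity). Counted from 1 at the 5′ end of the shown ALPP stretch, with the ALPP base first, the differences were A52G, C65T, G69A, A77G, A78G, G82A, C93T and G110A. Over 250 bases, identity after global alignment counted aligned bases only, with gap columns left out. It was 88.5% for ALPP with ALPPL2 (12 gap columns), 71.5% for ALPP with ALPI (58) and 72.1% for ALPPL2 with ALPI (56). For scale, the 3 RefSeq starts of ALPL aligned with ALPP at 50.7% to 53.4%, with 28 to 42 gap columns, and held neither block.

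Within the second block stands TTTAAA, a relative of the TATA box, the sequence that places transcription start in many tissue-restricted genes. It began 30 bases before the start in ALPP and ALPPL2 and 28 bases before it in ALPI. TTTAAA, which reads the same on both strands, was present in 12.2% of all start windows. The canonical TATAAA, present in 11.6% on either strand, was in none of the 3 windows; of the ALPL starts the middle one held it, 29 bases upstream. AGGTCA, a half-site of nuclear receptors, lies in the first block and in 13.8% of windows. GGGCGG, the GC box, occurred in 44.9% of windows; it was found 83 bases before the start of ALPPL2 and 106 before that of ALPI but not in the ALPP window, and A52G falls inside the ALPPL2 match. The middle ALPL start held 4 GGGCGG matches. These motifs were chosen after the sequences were seen, and a match describes letters only.

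Levels are given as RPKM, reads scaled to transcript length and library total, so they can be compared between genes. From the totals recovered here, 1 RPKM on 1 kb of transcript stood for 38.2 reads in the control and 33.2 with clusterin. Whether a read is a single read or a pair is not known from the values. Reads carry no molecular identifiers, and every interval below covers counting error only.

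ALPP stood at 215.954 RPKM in the control library and 234.213 in the clusterin library. These levels ranked 236th and 224th among all listed genes. By its mean, ALPP was number 232 of 20642 genes above 0, and number 166 of 15219 when small RNA genes and genes listed only by Ensembl identifier were left out.

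ALPI, the intestinal enzyme, stood at 11.7 RPKM in the control (95% exact Poisson interval 11.0 to 12.4) and 11.4 with clusterin (10.7 to 12.1). The values came from 1139 and 962 reads on a transcript of 2550 bases. ALPI was thus measured in both libraries, at number 3854 of 20642 by its mean.

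ALPPL2 stood at 1.88 RPKM in the control (1.61 to 2.17) and 1.66 with clusterin (1.39 to 1.96), from 179 and 137 reads on 2494 bases. In both libraries the intervals of ALPI and ALPPL2 were apart. ALPL, the tissue-nonspecific gene, was listed at 0 in both. Of 23802 genes listed by symbol, 33.7% were at 0 in both, among them the ribosomal protein gene RPS18, which no cell can lack, so ALPL is reported only as listed at 0.

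Among the 3 members above 0 the order was ALPP, ALPI, ALPPL2 in both libraries; ALPL is left out of it. ALPP made up 94.1% of the summed RPKM of these 3 in the control and 94.7% with clusterin. ALPI made up 5.09% and 4.60%, and ALPPL2 0.818% and 0.670%. ALPP was 18.5 times the level of ALPI in the control and 20.6 times with clusterin; against ALPPL2 it was 115 and 141 times. The coding sequences of ALPP and ALPPL2 are known to be nearly identical, and that of ALPI to be closely related but less alike; coding identity was not computed here. How reads that match several of them were counted is not stated in any source used here. The level of ALPPL2 is therefore uncertain, and that of ALPI may be to a lesser degree; how many of their reads came from ALPP was not tested.

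**Figure D1:**
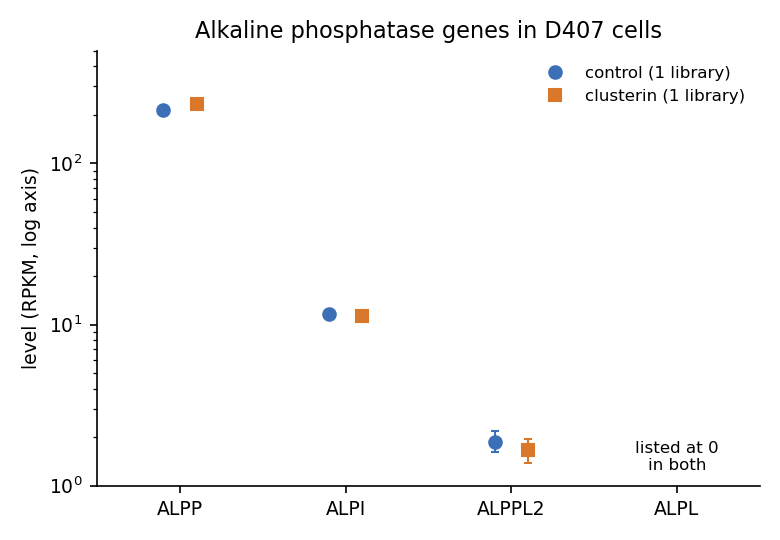
Level in RPKM (log axis) of the 4 alkaline phosphatase genes in the control (circles) and clusterin (squares) libraries, 1 library each; bars are 95% exact Poisson intervals, shown for ALPI and ALPPL2, whose reads could be recovered. ALPP lies at 216 and 234 RPKM, ALPI at 11.7 and 11.4 and ALPPL2 at 1.88 and 1.66, and ALPL is listed at 0.

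The series asked which RNAs differ between D407 cells with and without clusterin. None of the 3 measured family members was 2-fold apart, against 0.219% of the 13244 genes whose mean reached 1 RPKM. Differences are log2((clusterin RPKM + 1)/(control RPKM + 1)), a scale that understates the change of low genes, and 2-fold means at least 1 on it. The median log2 ratio of RPKM itself was -0.07, so a small value below 0, for a gene or a list median, can turn above 0 when the libraries are rescaled or, for some lists, with another filter. In bulk RNA, fewer cells making a transcript and less transcript per cell cannot be told apart.

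ALPP was higher in the clusterin library by 0.12 on this scale, a ratio of RPKM of 1.08; with the control rescaled to a median log2 ratio of 0, the value was 0.19. Its deposited p of 0 left the transcript length open. From 2405 to 4354 bases, 379 lengths gave reads that passed as whole and a p below 1.78e-15, the smallest above 0 among genes higher with clusterin. The tolerance for whole reads widens with the count and is wide here, so these lengths are loose bounds only. The shortest stood for 19859 and 18688 reads and gave a counting interval of 1.06 to 1.11 for the ratio. The longest stood for 35953 and 33833 reads and gave 1.07 to 1.10. Lengths were kept only with so small a p, so both intervals had to exclude 1 and restate the deposited p of 0. Of the 365 genes that averaged 100 RPKM or more, small RNA genes left out, the median log2 ratio was -0.05 and the central 90% lay from -0.18 to 0.11; 14 of them lay above ALPP. Over all 13244 genes the median was -0.06, and 8.72% lay above ALPP.

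ALPI differed by -0.04 on the log2 scale, a ratio of 0.973 with an interval of 0.892 to 1.06. ALPPL2 differed by -0.12, a ratio of 0.882 with an interval of 0.701 to 1.11. Both intervals include 1, so no difference was detectable for them at this depth. Both lay within the spread of genes of like level: the central 90% of 1096 genes at 10 to 14 RPKM lay from -0.20 to 0.10, and that of 3714 genes at 1 to 3 RPKM from -0.34 to 0.20. ALPP lay above 0 and ALPPL2 below it under each scaling tried, while ALPI was above 0 with the control rescaled or after quantile normalization.

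In the authors' deposited table, ALPP carried a q of 0, ALPI 0.771 and ALPPL2 0.539. A q below 0.05 was held by 12.0% of the 20642 genes above 0, by 1.63% on the higher side and by 10.4% on the lower side. These q-values compare 2 libraries, not the conditions, and by the reading of p given below they rest on read sampling alone. The q of 0 that the authors' deposited table gives ALPL comes with levels of 0 and was not taken as a call.

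**Figure D2:**
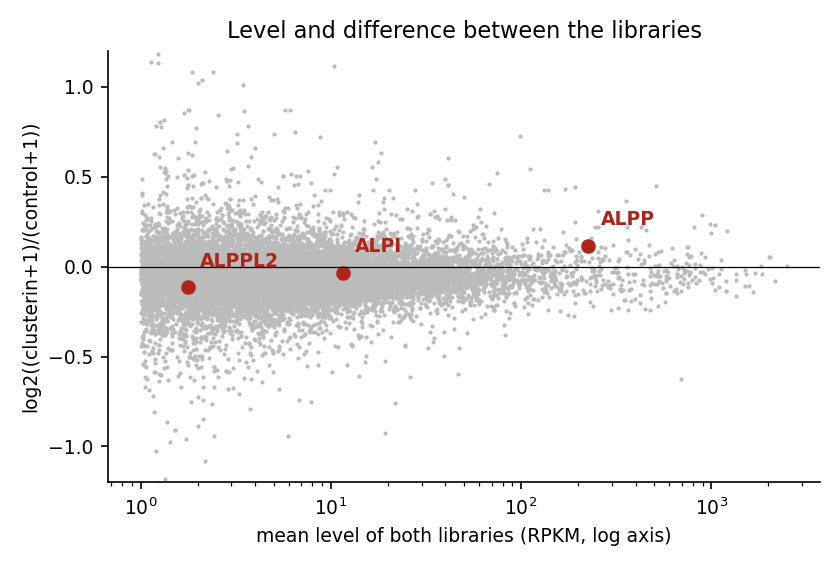
Mean level of both libraries (RPKM, log axis) against log2((clusterin+1)/(control+1)) for genes whose mean reached 1 RPKM (grey points), with the 3 measured family members in red. ALPP lies at 0.12 among genes of high level, ALPI at -0.04 and ALPPL2 at -0.12 inside the cloud; 27.0 genes lie beyond the axes.

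Genes of the same level in both libraries were sought by the distance on log2(RPKM + 1) over the 2 libraries, among 15218 genes with a symbol. Nearest to ALPP was KRT8, a keratin of simple epithelia, at 226 and 231 RPKM (distance 0.07). NME1-NME2, a readthrough of nucleoside diphosphate kinase genes, followed at 232 and 239 RPKM, and HIST1H2AE, a histone H2A gene, at 236 and 235. Nearest to ALPI were BICC1, an RNA-binding protein gene, at 11.7 and 11.4 RPKM, GIT1, a scaffold of focal adhesions, and RNASET2, a lysosomal ribonuclease. Nearest to ALPPL2 were MAN2B2, a mannosidase gene, at 1.88 and 1.66 RPKM, LRRCC1, a centrosome protein gene, and LOC284751. With 2 libraries such likeness is little more than a like level.

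The genes read around ALPP stood below it, which the choice of the family for its high ALPP level nearly fixed in advance. By its mean ALPP was number 232 of 20642 genes above 0, so most genes anywhere lie below it. RefSeq lists 20 other genes within 300 kb of ALPP, of which 10 were matched in the table, and the 8 nearest were read. ECEL1P2, a pseudogene 2861 bases after ALPP, had 21 control reads and 8 clusterin reads, levels of 0.424 and 0.186 RPKM. DIS3L2, an exoribonuclease gene before the cluster, stood at 2.52 and 2.48 RPKM. ECEL1, an endopeptidase-like gene just after ALPI, was at 0.0274 and 0.0316 RPKM, from 3 reads in each library.

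Beyond these, PRSS56, a serine protease gene known for its part in eye size, stood at 6.03 and 6.68 RPKM. The muscle acetylcholine receptor genes CHRND and CHRNG stood at 0.0441 and 0.0203 RPKM and at 0.454 and 0.441. TIGD1, derived from a transposon, was at 3.26 and 2.89. The hairpin gene MIR5001 was at 6.02 and 5.43, from 23 and 18 reads on 100 bases. RefSeq places MIR5001 over the end of TIGD1, so their reads cannot be told apart there. The RefSeq spans of TIGD1 and CHRNG also overlap, so reads may be shared between them. PRSS56 was the highest of the 8 by its mean, and ALPP stood at 35.8 times its level in the control and 35.1 times with clusterin. Around ALPL, where 6 of 17 genes were matched, all 6 were above 0. RAP1GAP stood at 0.538 and 0.595 RPKM, NBPF3 at 1.41 and 1.39, and USP48 at 5.05 and 4.79. ECE1 stood at 5.61 and 5.59, LDLRAD2 at 1.55 and 1.32 and HSPG2 at 2.31 and 2.37. The RefSeq spans of LDLRAD2 and HSPG2 overlap, so reads may be shared between them.

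**Figure D3:**
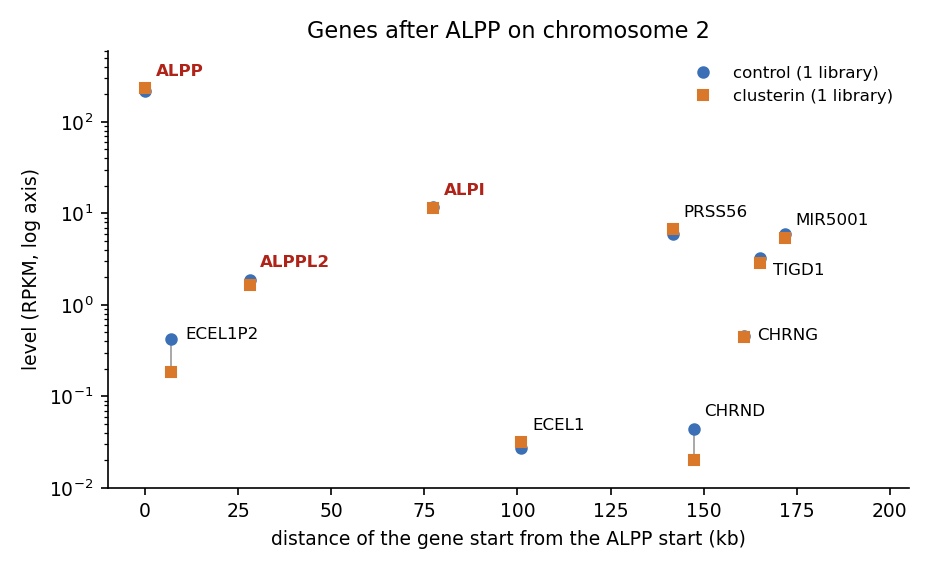
Level in RPKM (log axis) in the control (circles) and clusterin (squares) libraries, 1 each, against the distance in kb of each gene's start from the ALPP start, for the 3 family members (red) and the neighbours that start after ALPP. ALPP stands above every gene drawn, ALPI next, and ECEL1P2, ECEL1, CHRND and CHRNG lie below 1 RPKM.

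As the enzymes need a GPI anchor, genes that build, attach, remodel or cleave it were read. All 30 listed genes were in the table and above 0 in at least 1 library, and 27 reached a mean of 1 RPKM. DPM3, of dolichol phosphate mannose synthase, was highest at 53.3 RPKM in the control and 56.0 with clusterin, then PGAP2, which remodels the anchor, at 46.1 and 45.9, and PIGY, of the first enzyme of the pathway, at 32.9 and 35.7. Of the 27, 8 lay above 0 and 19 below, none was 2-fold apart, and the median difference was -0.04 against -0.06 over all genes. PIGF, at -0.25, was lowest and PIGH, at 0.26, highest, from 146 and 161 reads for PIGH.

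Set among 49 other genes of GPI-anchored surface proteins, ALPP had the highest mean level of the 53 genes when the family was added. This rank was nearly fixed in advance by the choice of the family for its high ALPP level. CD55, a brake on complement, followed at 174 RPKM in the control and 170 with clusterin. BST2, tetherin, which holds viruses at the cell surface, stood at 169 and 156, and PSCA, prostate stem cell antigen, at 95.4 and 94.6. On the difference scale CD55 was at -0.03 and BST2 at -0.12, beside 0.12 for ALPP. Of the 49, 12 were listed at 0 in both libraries and 25 reached 1 RPKM. Of these 25, 10 lay above 0 and 15 below with a median of -0.02 and none 2-fold apart; ULBP3, a ligand of a natural killer cell receptor, was lowest at -0.39 (36 and 18 reads) and EFNA4, an ephrin, highest at 0.15.

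**Figure D4:**
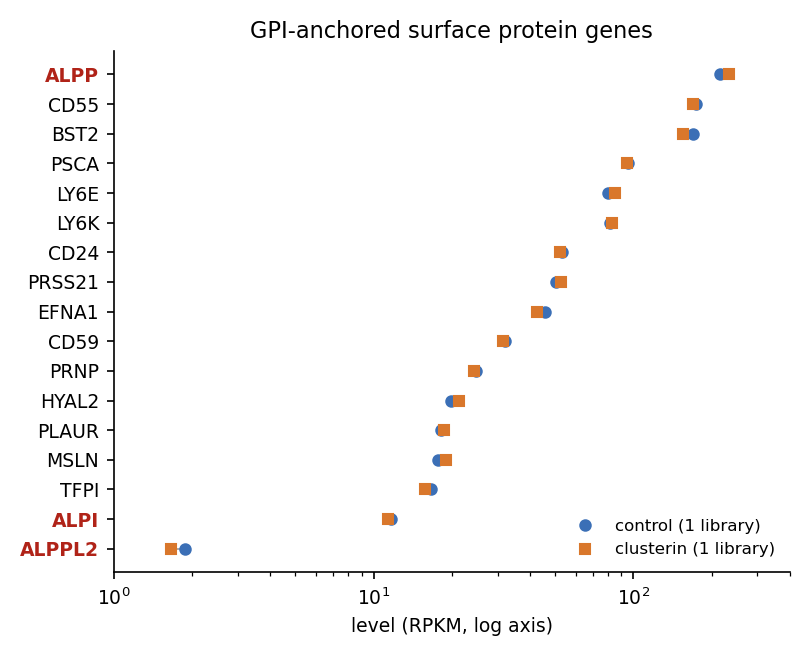
Level in RPKM (log axis) of the GPI-anchored genes that rank 1 to 15 by mean level, with ALPI and ALPPL2 added, in the control (circles) and clusterin (squares) libraries, 1 each. ALPP is at the top at 216 and 234 RPKM, above CD55 at 174 and 170. The choice of the family for its high ALPP level nearly fixed that place.

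Alkaline phosphatase acts in the extracellular balance of phosphate and pyrophosphate, and the tissue-nonspecific enzyme also frees pyridoxal from its phosphate. Of 24 genes of phosphate and pyrophosphate handling, 8 reached 1 RPKM and 5 were listed at 0. PPA1, the cytosolic pyrophosphatase, stood at 74.6 and 74.7 RPKM, SLC20A1, a sodium-phosphate cotransporter, at 23.4 and 22.5, and PPA2, the mitochondrial pyrophosphatase, at 20.7 and 19.1. Of the 8, 3 lay above 0 and 5 below, with a median of -0.04 and none 2-fold apart; XPR1, a phosphate exporter, was lowest at -0.12 and SLC20A2 highest at 0.13. ENPP1, which makes extracellular pyrophosphate, stood at 0.706 and 0.717 RPKM and PHOSPHO1, a phosphatase of matrix vesicles, at 0.337 and 0.610; both were picked out after the values were seen.

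All 4 vitamin B6 genes were measured and all 4 lay below 0, with a median of -0.13. PDXK, pyridoxal kinase, stood at 25.8 and 24.8 RPKM, and PDXP, a pyridoxal phosphate phosphatase, at 21.2 and 20.8. The 5 measured acid phosphatase genes, of 7, also lay below 0, with a median of -0.12 and none 2-fold apart. ACP1 stood at 38.3 and 35.6 RPKM, ACP2, of the lysosome, at 8.34 and 7.57, and ACPL2 at 8.02 and 7.50, while ACPT was lowest at -0.33 from 78 and 45 reads. As 70.2% of all measured genes lay below 0, the sign itself is common. All 5 acid phosphatase genes also lay below the median of all genes, and the median of the list was -0.06 with the control rescaled to a median log2 ratio of 0; nothing particular to the list was tested.

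**Figure D5:**
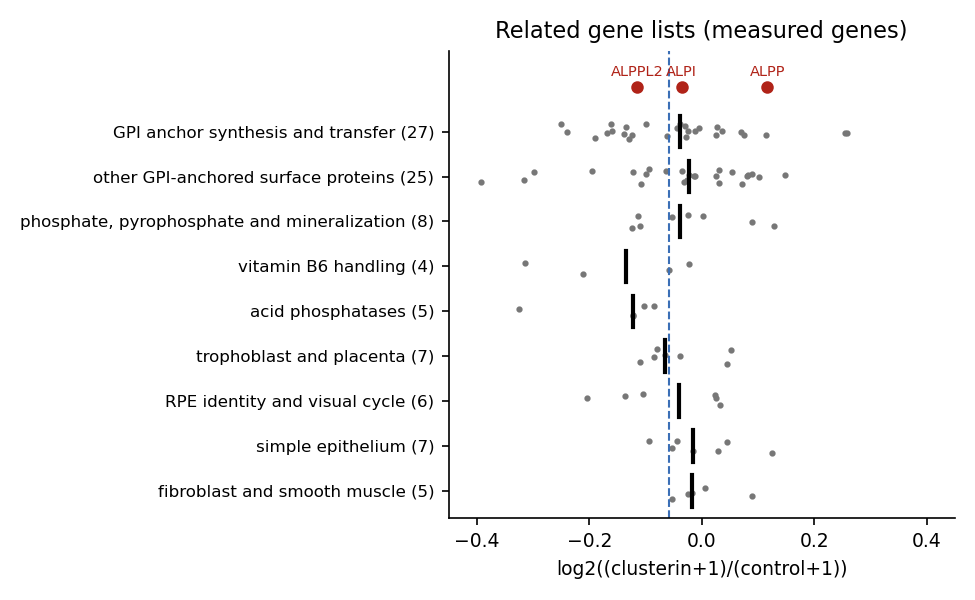
Difference log2((clusterin+1)/(control+1)) of each measured gene (grey points, spread vertically for view) in lists with at least 4 measured genes (number in brackets); black bars are list medians, the dashed line is the median of all measured genes at -0.06, and red points are the family. ALPP lies at 0.12, above the list medians, which run from -0.13 to -0.02.

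Marker lists of the tissues in which the enzymes are known were set beside these levels. Over all genes listed by symbol, 33.7% were at 0 in both libraries, RPS18 among them. A marker at 0, here and below, is therefore reported only as listed at 0, and no count of such markers was tested against that share. Of 34 trophoblast and placenta genes, 19 were at 0 in both libraries, including the defining CGB and PSG1, and 7 reached 1 RPKM. Their summed level was 471 RPKM in the control and 480 with clusterin, of which KRT7, a keratin of many simple epithelia, gave 407 and 420. CGA, the shared glycoprotein hormone alpha chain, stood at 1.64 and 1.50 RPKM from 53 and 42 reads. EGFR stood at 20.9 and 19.9 RPKM and the transcription factor TFAP2A at 10.8 and 9.95. The 7 had a median difference of -0.07, from TFAP2A at -0.11 to TEAD4 at 0.05, and none was 2-fold apart.

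Of 20 intestinal genes, 15 were listed at 0, among them CDX2 and LGALS4, and 0 reached 1 RPKM; their sum was 0.861 RPKM in the control and 0.638 with clusterin. Of 22 germ cell and pluripotency genes, 15 were at 0, among them NANOG, and 3 reached 1 RPKM, with sums of 7.39 and 7.25; these were PRDM1 at 3.09 and 3.02, SOX17 at 1.72 and 2.26 and SALL4 at 2.21 and 1.76. POU5F1 stood at 0.0369 and 0.00607 RPKM. Of 14 bone genes, 6 were at 0 and 2 reached 1 RPKM, BGLAP, osteocalcin, at 3.46 and 2.71, and COL1A1 at 1.15 and 0.920; SP7, the osteoblast factor, stood at 0.0772 and 0.0593, and the sums were 5.44 and 4.51.

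Markers of the labelled cell type were mixed: of 21 RPE genes, 9 stood at 0 in both libraries and 6 reached 1 RPKM. Over all genes listed by symbol, 33.7% were at 0 in both. The 9 were the visual cycle genes RPE65, RLBP1 and LRAT, the pigment genes TYR, TYRP1 and DCT, and TTR, OTX2 and RGR. PMEL, another pigment gene, stood at 0.582 and 0.397 RPKM, and KCNJ13 at 0.312 and 0.409. The pigment cell factor MITF stood at 9.70 and 9.88 RPKM, the retinol transporter STRA6 at 7.83 and 7.98 and BEST1, an RPE chloride channel, at 2.14 and 1.73. Their sum of 255 and 257 RPKM came mostly from SLC16A3, a lactate transporter of many cells, at 204 and 209, followed by RDH10 at 15.5 and 14.3 and RDH11 at 13.2 and 11.9. Simple epithelial genes summed to 1009 and 1028 RPKM, led by the keratins KRT7, KRT18 and KRT8; 7 of 14 reached 1 RPKM, 3 were at 0 (EPCAM, ESRP1 and GRHL2), and CDH1, E-cadherin, stood at 0.0163 and 0.0250. Of 12 fibroblast and smooth muscle genes, 5 reached 1 RPKM and 1, PDGFRA, was at 0. Their sums of 755 and 745 RPKM came mostly from S100A4 and VIM. LUM stood at 46.2 and 45.7 RPKM, DCN at 25.9 and 24.9 and FAP at 0.978 and 1.11. Lower were COL3A1, a fibrillar collagen, at 0.0667 and 0.110 RPKM and ACTA2, smooth muscle actin, at 0.735 and 0.928. MITF, STRA6, PMEL, KCNJ13, COL3A1, ACTA2 and the epithelial genes named here below 1 RPKM were picked out after the values were seen. So were the RPE genes at 0 other than the defining markers. Leukocyte and endothelial genes summed to 7.95 and 7.88, led by CD68. The part of any of these in the ALPP level was not tested.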

How the data were processed

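Per the labels' protocols, oligo(dT)-selected RNA of 1 control and 1 clusterin-treated D407 culture was sequenced. The submitters' processing notes name hg19, Bowtie, TopHat and Cuffdiff, without versions. The authors deposited 1 level per gene and library, and per gene a p-value, a q-value and a log2 fold change. The deposited levels have no named unit and are called RPKM: for 491 of 537 small RNA genes, both levels times length were whole reads within 0.02 at 1 total per library. For other genes, the length was sought at which both levels were whole and gave the deposited p within 2%. That p was taken as the Audic-Claverie probability, which it matched within 2% for 483 of the 491 small RNA genes. Whether the named Cuffdiff gave that p cannot be told from the values. For genes with many reads, the tolerance for whole reads was widened in proportion to the reads. Ratios have 95% Clopper-Pearson intervals. Analyses used Python 3.11.15, pandas 2.3.3, SciPy 1.17.1 and Biopython 1.88 (global alignment; match 2, mismatch -1, gap opening -5, extension -1). Start windows came from RefSeq (GRCh38.p14), where all 4 genes matched.

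The members and lists were chosen with earlier results of these data known. Named genes are the members; up to 8 table genes nearest to ALPP and ALPL within 300 kb; from each list the 3 with the highest mean and, with at least 5 measured genes, the highest and lowest difference; the 3 genes nearest in level to each measured member; and the defining RPE markers. Some genes that this rule names are not reported here. The steps were tested on simulated data.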

Additional observations from a re-analysis of the deposited data

How the results depend on the processing

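With pseudocounts of 0.1 and 5 RPKM, ALPP stayed at 0.12 and 0.11 on the log2 scale, and after quantile normalization at 0.14. With the control rescaled to a median log2 ratio of 0, ALPP moved to 0.19 and the median of the simple epithelial genes to 0.0497. ALPPL2 ran from -0.17 to -0.05 over these settings, within its counting error. ALPI ran from -0.04 to 0.03 and was above 0 with the rescaled control and after quantile normalization (0.02). The number of genes 2-fold apart was 29, and 76 with a pseudocount of 0.1, 5 with a pseudocount of 5 and 7 at a mean of at least 5 RPKM. The rescaled control put 7 of 8 list medians above 0, against 0 of 8 as reported; at a mean of at least 5 RPKM, 2 of 8 were above 0, RPE at 0.02 and simple epithelium at 0.006. Apart from the simple epithelial value above, these 8 medians moved by less than the typical counting error of a single gene of the list. A median over several genes has a smaller counting error, and rescaling shifts all genes together. The comparison therefore does not make the rescaling negligible. Lists with under 5 measured genes, vitamin B6 among them, were not recomputed. No setting gives a replicate, and depth limits ALPPL2 most, at 179 and 137 reads.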

Other observations

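Several other GPI-anchored genes were high in both libraries; they were named after their values were seen. LY6E and LY6K, of the Ly6 family, stood at 80.1 and 81.0 RPKM in the control and at 84.9 and 82.7 with clusterin. PRSS21, testisin, a serine protease known from testis, stood at 50.5 and 52.4 RPKM, and CD24, a small mucin-like surface protein, at 52.9 and 52.4. MSLN, mesothelin, stood at 17.7 and 19.1 RPKM.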
